A study of Mus musculus with 8 samples.

Results

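The nuclear-encoded subunits of the respiratory chain and of the ATP synthase were examined in regulatory T cells (Tregs) of mice undergoing high-altitude de-acclimatization (HADA). Members were protein-coding genes named Nduf followed by a, b, c, s or v and a digit (complex I), Sdha to Sdhd (complex II), Uqcr (complex III), Cox4 to Cox8 (complex IV) and Atp5 (complex V, the ATP synthase). Under this rule 89 of the 56980 genes in the count table were members, namely 39 of complex I, 4 of complex II, 8 of complex III, 19 of complex IV and 19 of complex V. Another 18 genes with such names were not annotated as protein-coding and were left out, and Atp5po was listed under 2 identifiers, so that the 89 genes carried 88 symbols. Grouping was by name alone, so Ndufa4, now assigned to complex IV, was counted with complex I, and the inhibitor gene Atp5if1 with complex V.

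RNA was sequenced from Tregs sorted from peripheral blood by flow cytometry, with 4 libraries of HADA mice and 4 of control mice. All mice were male C57BL/6j animals obtained at 8 weeks of age. HADA mice were held for 28 days under hypobaric hypoxia equivalent to 6000 m and then moved to normoxia, whereas the controls stayed in normoxia throughout. Cell numbers were limited, so cDNA was amplified with a low-input kit, and the sources used here do not give, for these libraries, the sorting gate, the day of sorting after the return or the number of animals behind each. For the suppression assay, Tregs were defined as CD4+CD25+ and taken after 14 days in normoxia. The p-values below therefore measure the spread between these libraries, which may be partly technical.

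The respiratory chain passes electrons from NADH at complex I, or from succinate at complex II, through complex III to oxygen at complex IV, and the proton gradient built on the way drives the ATP synthase. A few catalytic subunits of complexes I, III, IV and V are encoded in the mitochondrial genome, while the others, including all of complex II, are encoded in the nucleus and imported. Several subunits of complex IV and the c-ring of the ATP synthase exist as isoforms from separate genes, some restricted to heart, skeletal muscle or testis, and Tregs are known for their reliance on oxidative metabolism.

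The control libraries differed from each other more than the HADA libraries did, though over all genes only with control replicate 1 included. Total counts were 1477431 in control replicate 1 and between 14452433 and 28240337 in the other 7 libraries. The density of counts on olfactory and vomeronasal receptor genes, which T cells are not known to transcribe and which here stood for background reads, was 0.745, 0.365 and 0.161 CPM per kilobase of gene span in control replicates 2, 3 and 4, 0.0539 in control replicate 1 and 0.0753 to 0.193 in the HADA libraries. CPM are counts per 1000000 counts of the library, corrected with the trimmed mean of M-values (TMM). Only the densities per kilobase of gene span, here and for Cox7b2, were left without this correction. The 7 erythroid markers summed to 28367 CPM in control replicate 1, 1029 to 7310 in the other controls and 146 to 2807 in the HADA libraries. Foxp3, the defining gene of Tregs, was listed at 0 in every library, because other gene spans cover all of its span. Il2ra, which encodes CD25, stood at 163 to 748 CPM in the HADA libraries and at 178, 10.5, 7.23 and 59.5 CPM in control replicates 1 to 4, and the 9 Treg and CD4 T cell markers summed to 2043 to 5486 against 290 to 1522 CPM. The 6 heart and skeletal muscle markers summed to only 7.38 to 10.5 CPM in the HADA and 0.621 to 6.01 CPM in the control libraries. Platelet, B cell, myeloid and cytotoxic markers summed to 268 to 1662, 850.1 to 2904, 1610 to 4320 and 35.5 to 952 CPM in the HADA libraries, and to 43.0 to 469.8, 75.1 to 2271, 49.8 to 1849 and 5.52 to 104 CPM in the controls. The part of these cells in the values of the members was not tested. In such bulk samples, fewer cells of a type and less RNA per cell cannot be told apart.

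Most nuclear-encoded subunits had higher mean levels in HADA Tregs, but with this spread among the controls a single gene, Cox7a1, passed the test. Counted over all members, 81 of the 89 had enough counts to be tested, and in 76 of them (93.8%) the log2 fold change of HADA against control was above 0, compared with 50.2% of all 21991 genes tested. It exceeded 1 in 67 members (82.7%), compared with 31.4% of all genes. The median log2 fold change of the members was 2.38 and that of all genes 0.01. In edgeR's quasi-likelihood test, calls required a log2 fold change above 1 or below -1 and an adjusted p (Benjamini-Hochberg) under 0.05. By this rule, 1 member was called higher and 0 lower, where 1.65% of all genes were called higher and 0.477% lower. At an unadjusted p below 0.05 with the same fold, 37 members were higher and 0 lower, with 12% and 14.7% of all genes respectively.

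The count of calls depended on the method and on control replicate 1. DESeq2 called 39 members higher and 1 lower, beside 11.2% and 19.3% of all genes. Without control replicate 1, edgeR called 35 higher and 1 lower (15.5% and 19.7% of all genes), and the median of the members was 3.27 against -0.02 for all genes. DESeq2 without that library, run after the data had been seen, called 55 higher and 1 lower (26.1% and 24.9% of all genes). When background reads, estimated from the receptor genes, were subtracted, 79 members could be tested and 0 were called, with a median of 2.15 against 1.0 for all genes still tested (1.06% of them called higher). Scaling by library totals alone shifted the median of all genes to -0.71, and the members' median was then 1.97, with 3 members called higher (0.937% of all genes) and 0 lower (0.819%). With at least 10 counts required in every library, Uqcrh and Ndufa12 were called higher, 2 members beside 1.1% of the genes kept, and 0 were called lower (1.57%). With genes left out that other spans cover by more than 20%, 4 members were called higher (1.51% of the genes kept) and 0 lower (0.279%), the 4 being Cox7a1, Ndufa12, Cox6a1 and Cox8a.

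All 4 HADA libraries lay above all 4 controls in 44 of the 81 members, a pattern found in 9.13% of all genes, and below all controls in 0 members (5.7% of all genes). Against control replicates 2 to 4 alone, all HADA libraries were higher in 58 members (18.4% of all genes). The highest control was replicate 1 in 52 members and replicate 4 in 22, but replicate 3 in 4 and replicate 2 in 3. Likewise, the median member stood at 125, 102, 155 and 199 CPM in HADA replicates 1 to 4, and at 60.3, 1.97, 3.91 and 34.8 CPM in control replicates 1 to 4. All HADA medians were above all control medians, and controls 2 and 3, with the densest background reads, had the lowest. The median over all genes tested moved little, between 3.30 and 5.78 CPM. TMM scaling is set to align the bulk of genes, so that steadiness is partly by design. The typical spread between HADA libraries (median SD of log2 CPM) was 0.57 for the members and 0.72 for all genes, but between the controls it was 2.77 and 1.58. Between control replicates 2 to 4 alone it was 2.34 for the members and 0.63 for all genes, the latter below the HADA value.

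**Figure D1:**
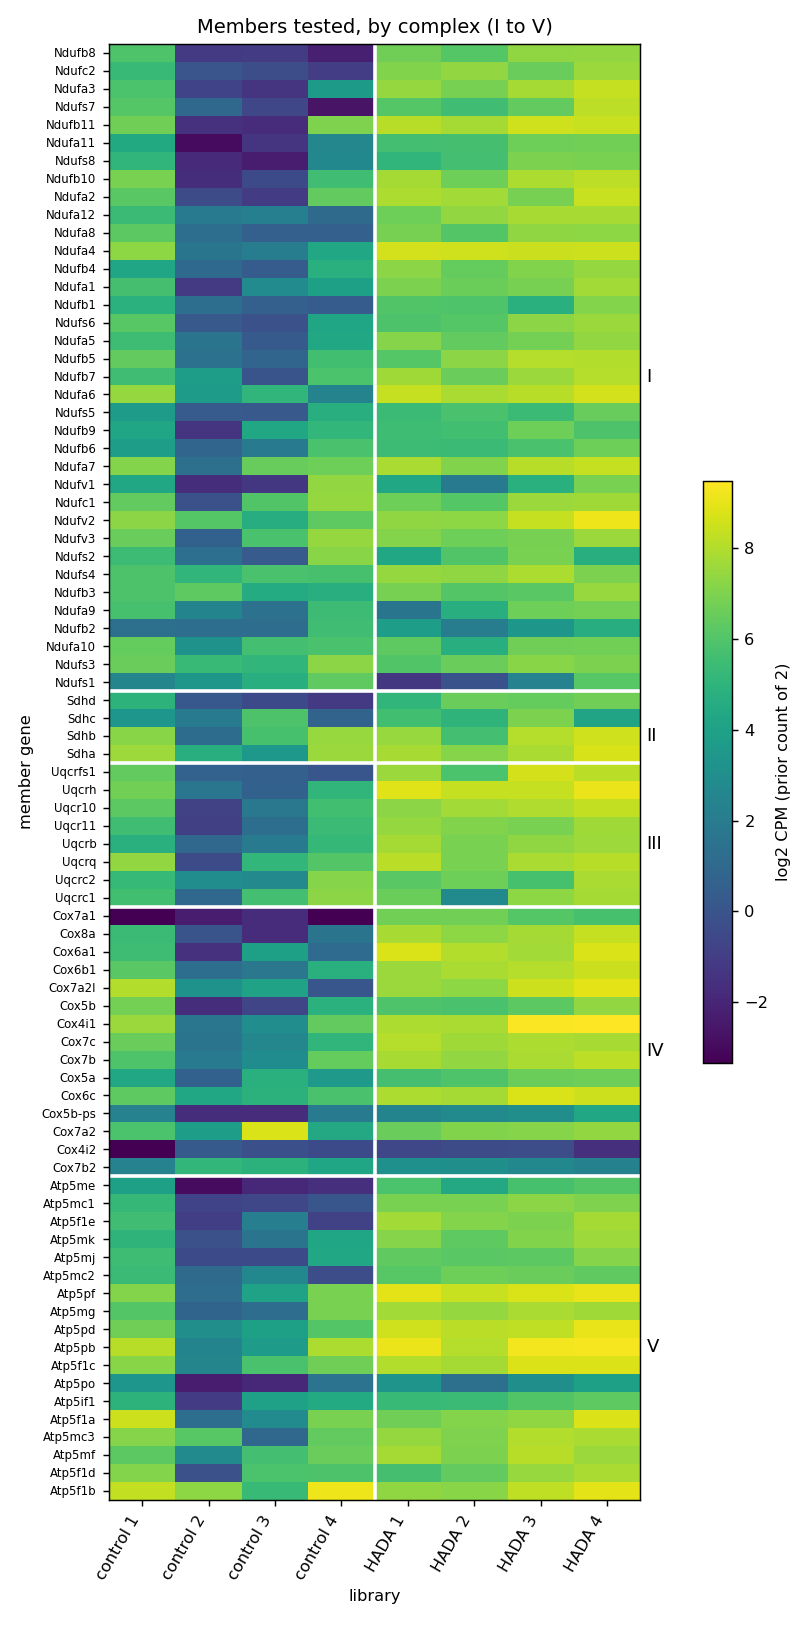
Levels of the 81 members tested (rows, grouped by complex I to V) in each library (columns), as log2 CPM with a prior count of 2, from dark (low) to yellow (high). The 4 HADA columns look alike, whereas control replicates 2 and 3 are dark for most members and replicates 1 and 4 lie between.

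Summed over its members, each complex had a higher mean level in HADA Tregs. All 89 members together reached 12116, 9479, 14885 and 18947 CPM in HADA replicates 1 to 4 and 6373, 727, 1616 and 4852 CPM in control replicates 1 to 4, so the groups did not overlap. The ratio of the group means was 4.04 for complex I, 2.65 for complex II, 5.42 for complex III, 5.33 for complex IV, 3.45 for complex V and 4.08 in all. Complexes I, III, IV and V each separated the groups without overlap, while in complex II HADA replicate 2 (317 CPM) lay below control replicates 1 (385 CPM) and 4 (372 CPM). The median log2 fold changes were 2.41 for the 36 tested members of complex I, 1.40 for the 4 of complex II, 2.83 for the 8 of complex III, 2.52 for the 15 of complex IV and 2.12 for the 18 of complex V. The differences between complexes were not tested.

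**Figure D2:**
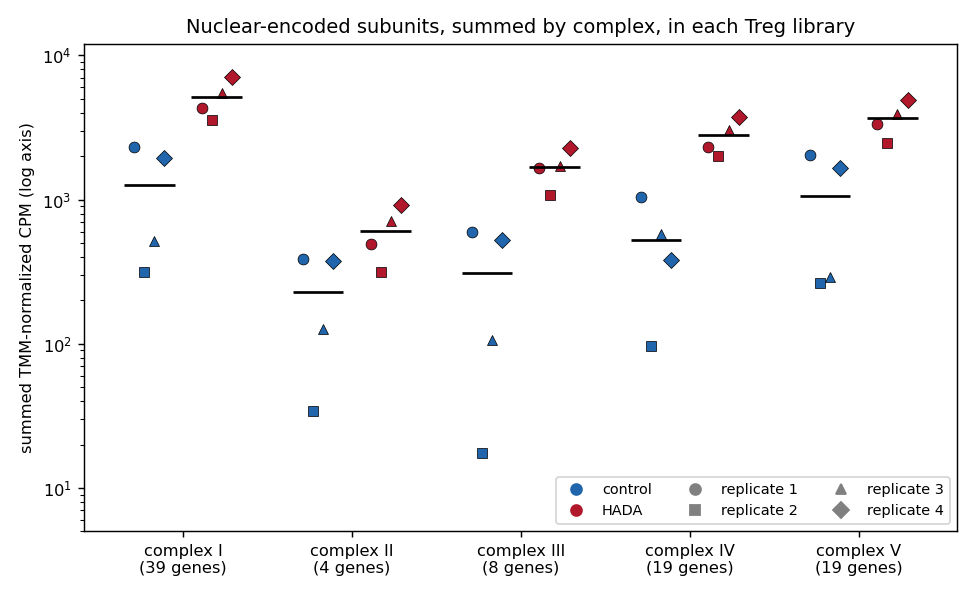
Summed TMM-normalized CPM of the members of each complex (log axis) in the 4 control (blue) and 4 HADA (red) Treg libraries, with symbols for the replicate number and bars for group means. The HADA points lie above all control points in complexes I, III, IV and V and overlap in complex II, and control replicate 2 is lowest in every complex.

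In complex I, the NADH dehydrogenase, 33 of 36 tested members had a log2 fold change above 0 and 28 above 1. Of these members 0 were called by edgeR, beside 1.65% of all genes called higher and 0.477% lower. At an unadjusted p below 0.05 and a log2 fold change above 1, 14 were higher, beside 12% of all genes. The smallest p belonged to Ndufa12, an accessory subunit needed late in the assembly of the complex, which stood at 101, 168, 227 and 221 CPM in HADA replicates 1 to 4 and at 42.9, 3.70, 4.44 and 2.03 CPM in control replicates 1 to 4. The groups did not overlap, and the log2 fold change was 3.79 ± 1.10 (SE, n = 4 per group), with an adjusted p of 0.0856 in edgeR's test over all genes. Ndufb4, an accessory subunit of the membrane arm, stood at 86.2 to 174 CPM against 19.3, 1.97, 1.22 and 27.5 CPM (log2 fold change 3.46 ± 1.07, edgeR adjusted p = 0.0988). Ndufc2, another membrane-arm subunit, stood at 94.3 to 190 CPM in HADA, at 39.8 CPM in control replicate 1 and below 1 CPM in the other 3 controls (3.86 ± 1.44, edgeR adjusted p = 0.133). For both genes every HADA library was above every control. Ndufa4 was steady in HADA Tregs, at 388, 380.3, 358 and 358 CPM, and spread over 158, 3.01, 4.12 and 20.5 CPM in control replicates 1 to 4 (3.01 ± 1.17, edgeR adjusted p = 0.143).

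The members of complex I with a log2 fold change below 0 were Ndufs1, Ndufv1 and Ndufb2, and none of them was near the threshold. Ndufs1 and Ndufv1 encode core subunits of the arm that takes electrons from NADH. Ndufs1 stood at 0.316, 0.838, 4.90 and 72.1 CPM in HADA replicates 1 to 4 and at 5.59, 11.0, 27.2 and 80.5 CPM in control replicates 1 to 4. Its replicates spanned more than the difference between groups, and the log2 fold change was -0.67 ± 1.43 (edgeR adjusted p = 0.763). Ndufv1 (-0.16 ± 1.61) and Ndufb2 (-0.03 ± 1.11) were as uncertain, with control replicate 4 their highest control at 169 and 47.5 CPM. Other gene spans cover more than 20% of Ndufs1 and Ndufb2, so reads on the shared bases may have been lost.

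Subunits labelled core here had smaller differences than the others, labelled accessory. The core label covered the 7 nuclear-encoded core subunits of complex I and the 5 F1 subunits of complex V. It also covered all of complex II and Uqcrfs1 of complex III, while the c-ring genes were counted as accessory. In complex I the median log2 fold change was 0.43 for the 7 nuclear-encoded core subunits, 5 of them above 0, and 2.47 for the 29 accessory subunits tested. In complex V it was 1.10 for the 5 subunits of the catalytic F1 part and 2.51 for the other 13. Among all members it was 1.26 for 17 core and 2.50 for 64 accessory subunits. This split was drawn after the values were seen and was not tested, and the core transcripts were also longer, with a median of 1780 bases against 873.

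Complex II, succinate dehydrogenase, belongs to both the respiratory chain and the citric acid cycle. Sdhd, one of its membrane anchors, stood at 33.8, 93.3, 88.5 and 105 CPM in HADA replicates 1 to 4 and at 31.1, 1.03, 0.629 and 0.348 CPM in control replicates 1 to 4. The groups did not overlap, although HADA replicate 1 was close to control replicate 1, and the log2 fold change was 3.35 ± 1.40 (edgeR adjusted p = 0.162). The groups overlapped for the other 3 subunits. The catalytic flavoprotein Sdha stood at 142 to 416 CPM in HADA and at 195, 27.2, 11.4 and 191 CPM in control replicates 1 to 4 (1.26 ± 0.92, edgeR adjusted p = 0.363). The iron-sulfur subunit Sdhb had a log2 fold change of 1.19 ± 1.06 and the anchor Sdhc of 1.55 ± 1.14.

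In complex III, all 8 members had a log2 fold change above 0, 5 of them above 1 at an unadjusted p below 0.05 (12% of all genes). Uqcrb, a small subunit that binds near the quinone site, stood at 214, 119, 165 and 196 CPM in HADA replicates 1 to 4 and at 27.3, 1.85, 3.91 and 36.8 CPM in control replicates 1 to 4. Every HADA library was well above the highest control, and the log2 fold change was 3.32 ± 1.01 (edgeR adjusted p = 0.0963). Uqcrh, the hinge protein that docks cytochrome c1, stood at 327 to 546 CPM against 106, 3.13, 1.47 and 34.7 CPM (3.54 ± 1.19, edgeR adjusted p = 0.115). Uqcr10 stood at 155 to 315 CPM in HADA and at 0.470 to 75.2 CPM in the controls (2.87 ± 1.22, edgeR adjusted p = 0.166), again without overlap. Uqcrc1 and Uqcrc2, which encode the large proteins on the matrix side, overlapped between the groups.

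Complex IV, cytochrome c oxidase, held the called member. Cox7a1 encodes the form of subunit VIIa typical of heart and skeletal muscle, and lies on chromosome 7 at chr7:29883569-29885503 (GRCm39, plus strand). It received 2737, 2538, 1167 and 889 counts in HADA replicates 1 to 4 and 0, 3, 6 and 0 counts in control replicates 1 to 4. These counts correspond to 108, 106, 68.9 and 53.4 CPM in the HADA libraries and to at most 0.210 CPM in a control. All HADA libraries were therefore far above all controls, with a log2 fold change of 9.64 ± 1.29 and an adjusted p of 0.00693 in edgeR's quasi-likelihood test, the eighth highest fold change of the 21991 genes tested. The controls together held 9 counts, with an exact Poisson 95% interval of 4.12 to 17.1 that covers counting error only. At the lowest HADA level the shallow control replicate 1 would have held 86.0 counts, and it held 0.

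The Cox7a1 difference did not rest on any single library, since leaving out each in turn gave a log2 fold change between 9.28 and 10.56. When background reads were subtracted, 2727, 2529, 1161 and 885 counts were left in the HADA libraries and 0 in every control, and the fitted log2 fold change was 13.42, a value that depends on the prior count. Its adjusted p in edgeR was then 0.0624, which ended the call. The gene was not tested when at least 10 counts were required in every library. No other gene span overlaps Cox7a1. Its neighbour Capns1, on the opposite strand 857 bases away, had 2836, 2971, 737 and 2077 counts in the HADA libraries. In control replicates 1 to 4 Capns1 had 307, 3586, 49 and 7 counts, and other gene spans cover 40.9% of it. A local loss of reads at Cox7a1 was not tested. The summed heart and skeletal muscle markers, given above, stayed below the level of Cox7a1 in every HADA library. Other gene spans cover 100% of Actc1, 67.5% of Myh7 and 27.2% of Ckm, so these can be undercounted. The cardiac myosin gene Myh6, 4.06% covered, stood at 1.5 to 1.95 CPM in the HADA and 0.621 to 2.22 CPM in the control libraries, and the skeletal actin gene Acta1, not covered, reached at most 0.586 CPM. Tnnt2, also not covered, went the other way, at 1.84 to 6.86 CPM in the HADA and 0 to 1.44 CPM in the control libraries. Every HADA library was above every control for Tnnt2 (2.10 ± 0.73, edgeR adjusted p = 0.119). The part of muscle transcripts in the Cox7a1 values was not tested.

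Cox7a2, the ubiquitous form of subunit VIIa, showed no such difference. It stood at 94.6, 135, 145 and 169.8 CPM in HADA replicates 1 to 4 and at 57.2, 14.2, 430.3 and 21.0 CPM in control replicates 1 to 4. Control replicate 3 was the highest of all libraries, the groups overlapped, and the log2 fold change was 0.06 ± 1.01 (edgeR adjusted p = 0.973), or 2.16 without that library. Per kilobase of transcript, the mean level in HADA Tregs was 191 CPM for Cox7a1 and 167 CPM for Cox7a2, a ratio of 1.14. In the controls the same levels were 0.172 and 161 CPM. The third VIIa-like gene, Cox7a2l, stood at 161 to 491 CPM in HADA. In control replicates 1 to 4 it stood at 255, 9.39, 16.2 and 0.985 CPM (2.10 ± 1.29, edgeR adjusted p = 0.287). Without control replicate 1 its log2 fold change was 5.23 (edgeR adjusted p = 0.0145).

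The promoter windows of these genes are shown because Cox7a1 was the only member called, Cox7a2 is its ubiquitous counterpart, and Cox6a1 had the next highest log2 fold change among the members. Each runs from 250 bases before to 50 bases after a start annotated by RefSeq (table build GRCm38.p6), and was placed in GRCm39 by an exact match. Capitals mark matches to the motif of the nuclear respiratory factor NRF1 (GCGCATGCG, where overlapping matches on both strands join) and to the ETS motif of GABP (CCGGAAG, here on the opposite strand as CTTCCGG). The windows are chr7:29883346-29883645 on the plus strand for Cox7a1, chr9:79667086-79667385 on the minus strand for Cox7a2 and chr5:115486968-115487267 on the minus strand for Cox6a1.
Cox7a1: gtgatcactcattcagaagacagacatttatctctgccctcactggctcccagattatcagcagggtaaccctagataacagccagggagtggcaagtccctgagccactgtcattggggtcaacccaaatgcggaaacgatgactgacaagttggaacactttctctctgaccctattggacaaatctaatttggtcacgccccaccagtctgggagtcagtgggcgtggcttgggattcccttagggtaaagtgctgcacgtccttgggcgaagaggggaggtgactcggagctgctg
Cox7a2: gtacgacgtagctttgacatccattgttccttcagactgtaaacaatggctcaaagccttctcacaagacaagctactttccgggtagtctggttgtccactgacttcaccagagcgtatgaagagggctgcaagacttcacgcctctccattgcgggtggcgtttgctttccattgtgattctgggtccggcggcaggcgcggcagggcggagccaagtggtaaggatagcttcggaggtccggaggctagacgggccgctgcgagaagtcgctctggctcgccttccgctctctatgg
Cox6a1: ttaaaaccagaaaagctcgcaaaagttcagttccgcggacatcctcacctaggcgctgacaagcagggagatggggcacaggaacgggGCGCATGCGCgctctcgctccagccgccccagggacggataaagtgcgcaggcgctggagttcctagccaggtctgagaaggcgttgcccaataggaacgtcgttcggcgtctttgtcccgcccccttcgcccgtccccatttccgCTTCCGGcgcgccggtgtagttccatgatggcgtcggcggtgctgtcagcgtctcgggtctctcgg
Neither the Cox7a1 nor the Cox7a2 window held a match to these motifs, and the Cox6a1 window held matches to both. The windows contained 7, 20 and 32 CpG dinucleotides, respectively. Such windows were found for 68 of the 88 member symbols (73 windows). The NRF1 motif occurred in 8 of them (11.0%), compared with 1.76% of all 32544 windows in the table, and the ETS motif in 16 (21.9%, compared with 8.91%). The antioxidant response element (TGACNNNGC) occurred in 10 (13.7%, compared with 12.4%). All motifs were searched on both strands without a test, and a match is not evidence of binding. The member windows held a median of 19 CpG dinucleotides and all windows 7, so that the Cox7a1 window was at the median of all windows. The NRF1 and ETS motifs themselves contain CpG, and the part of CpG content in their shares was not tested.

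Among the other 14 tested members of complex IV, 12 had a log2 fold change above 0. Cox6c, a small subunit of the membrane part, stood at 237, 217, 438 and 362 CPM in HADA replicates 1 to 4 and at 77.7, 20.5, 29.3 and 55.0 CPM in control replicates 1 to 4. The groups were well separated, and after Cox7a1 it had the smallest p in the complex (log2 fold change 2.78 ± 0.75, edgeR adjusted p = 0.0720), but other gene spans cover more than 20% of it. Cox6a1, the ubiquitous form of subunit VIa, stood at 433, 261, 206 and 436 CPM against 46.0, 0.250, 15.4 and 2.14 CPM (4.42 ± 1.30, edgeR adjusted p = 0.0881). Cox8a, the ubiquitous form of subunit VIII, stood at 161 to 331 CPM against 42.3, 0.908, 0.210 and 2.96 CPM (4.38 ± 1.43, edgeR adjusted p = 0.107). No control reached the lowest HADA value of either gene, and both were called when library totals alone were used for scaling.

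Cox4i1, the ubiquitous form of subunit IV, had 2 levels within the HADA group, 244 and 232 CPM in replicates 1 and 2 and 687 and 718 CPM in replicates 3 and 4, and stood at 187, 3.13, 7.51 and 85.0 CPM in control replicates 1 to 4. Its groups did not overlap (2.74 ± 1.15, edgeR adjusted p = 0.164). Cox6b1, which sits where the monomers of the dimer meet, stood at 191 to 355 CPM in HADA and at 2.38 to 74.6 CPM in the controls (3.28 ± 1.09, edgeR adjusted p = 0.112).

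Apart from Cox7b2, described below, the other tissue isoforms of complex IV were near or at 0 counts. Cox4i2, the lung and oxygen-regulated form of subunit IV, reached at most 1.13 CPM in any library and did not separate the groups (-0.48 ± 0.62, edgeR adjusted p = 0.605). The testis isoforms Cox6b2 and Cox8c and the heart and muscle isoform Cox8b had too few counts to be tested, with at most 2.21 CPM in any library, as had Ndufa4l2, a paralogue of Ndufa4, at most 0.782 CPM. Cox6a2, the heart and muscle form of subunit VIa, and Ndufa13, a subunit of complex I, were listed at 0 in all libraries, and other gene spans cover them in full, so their expression could not be measured here. The second identifier of Atp5po, 98.3% covered, and Ndufb11b were also not tested. Of the 2 heart and muscle isoforms of complex IV whose counts could be read, Cox7a1 and Cox8b, only Cox7a1 had appreciable counts.

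Cox7b2, known from testis, was the member with the lowest log2 fold change. It stood at 8.36, 8.29, 6.08 and 4.81 CPM in HADA replicates 1 to 4 and at 4.97, 36.0, 29.9 and 19.2 CPM in control replicates 1 to 4. Control replicate 1 overlapped the HADA range and the other controls were above it (-1.72 ± 0.80, edgeR adjusted p = 0.192), and DESeq2 called it lower. Its span is 105 kilobases long, and its density in control replicates 1 to 4 was 0.0514, 0.756, 0.360 and 0.146 CPM per kilobase, beside 0.0539, 0.745, 0.365 and 0.161 on the receptor genes. In the HADA libraries it was 0.0285 to 0.0819, beside 0.0753 to 0.193, all scaled by library totals alone. Its counts thus followed the background density in the controls and stayed below it in the HADA libraries. With background subtracted, 17 counts were left in control replicate 2 and 0 in the other 7 libraries.

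Ratios of 2 genes within a library do not depend on how libraries are scaled, and could be tested for 4 pairs with at least 3 counts of both genes in every library. The log2 ratio of Cox7b2 to Cox7b was -5.07 ± 0.69 (SD, n = 4) in HADA and -0.13 ± 3.25 in control Tregs, a difference of -4.94 (exact two-sided permutation p = 0.029, the smallest this design allows, Benjamini-Hochberg adjusted p = 0.0571). Because the Cox7b2 counts were near or below the background density, this ratio was not read as a measure of an isoform balance. The part of background reads in it was not tested. For Atp5mc1 over Atp5mc3, 2 genes for the same c-ring protein of the ATP synthase, the ratio was -0.56 ± 0.35 and -4.29 ± 2.86, a difference of 3.73 (exact permutation p = 0.029, adjusted p = 0.0571). Neither passed an adjusted threshold of 0.05, although all HADA values lay on one side of all controls in both pairs. For Atp5mc2 over Atp5mc3 the difference was 1.87 (exact permutation p = 0.314) and for Cox7a2l over Cox7a2 it was 2.91 (exact permutation p = 0.171). The pair of Cox7a1 and Cox7a2 lacked the counts for this test in the controls, and its log2 ratio was between -1.67 and 0.19 in HADA and between -10.89 and -7.01 in control libraries.

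**Figure D3:**
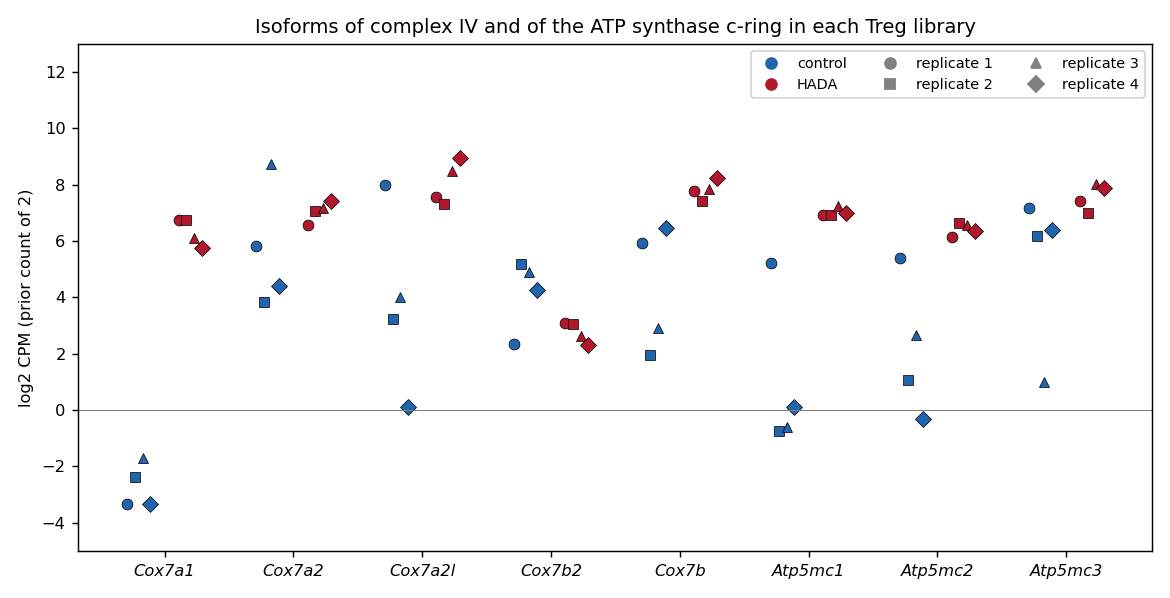
Levels of 8 isoform genes in each library as log2 CPM with a prior count of 2, controls in blue and HADA in red, with symbols for the replicate number. Cox7a1 is the one gene with all controls below -1 and all HADA libraries above 5, Cox7a2 overlaps, and Cox7b2 has 3 controls above the HADA range.

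In complex V, all 18 tested members had a log2 fold change above 0, and 16 exceeded 1. Atp5pd, part of the stalk that holds the catalytic head in place, stood at 380.0, 289, 301 and 539.8 CPM in HADA replicates 1 to 4 and at 104, 7.89, 15.5 and 66.4 CPM in control replicates 1 to 4. The groups did not overlap, and this was the smallest p in the complex (2.97 ± 0.90, edgeR adjusted p = 0.0958). Atp5mk, a small membrane subunit, stood at 79.7 to 197 CPM against 32.3, 0.783, 2.97 and 18.9 CPM (3.36 ± 1.10, edgeR adjusted p = 0.109), and Atp5f1e, the epsilon subunit of the central stalk, at 124 to 218 CPM against 47.2, 0.407, 4.40 and 0.464 CPM (3.76 ± 1.39, edgeR adjusted p = 0.132). In each, control replicate 1 was the highest control and no control reached the HADA range.

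The 3 c-ring genes differed among themselves. Atp5mc1 stood at 121, 120.2, 153 and 129 CPM in HADA replicates 1 to 4 and at 37.3, 0.501, 0.559 and 0.985 CPM in control replicates 1 to 4 (3.79 ± 1.41, edgeR adjusted p = 0.133). Atp5mc2 had a like pattern, at 70.4 to 101 CPM against 41.6, 2.0, 6.22 and 0.695 CPM (2.82 ± 1.16, edgeR adjusted p = 0.160). Atp5mc3 stood at 127 to 259.9 CPM against 144, 72.4, 1.89 and 84.0 CPM, and its groups overlapped (1.40 ± 0.98, edgeR adjusted p = 0.339). In control replicate 2, Atp5mc3 was covered by 2311 counts and Atp5mc1 by 16. Atp5pb, a further stalk subunit, stood at 550.5, 270.5, 623 and 635 CPM in HADA and at 278, 5.29, 13.2 and 237 CPM in the controls (1.96 ± 1.09, edgeR adjusted p = 0.246). The catalytic subunit gene Atp5f1b had the log2 fold change nearest 0 in the complex, 0.02, and its HADA values (146 to 493 CPM) lay within the range of the controls (39.7 to 575 CPM).

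**Figure D4:**
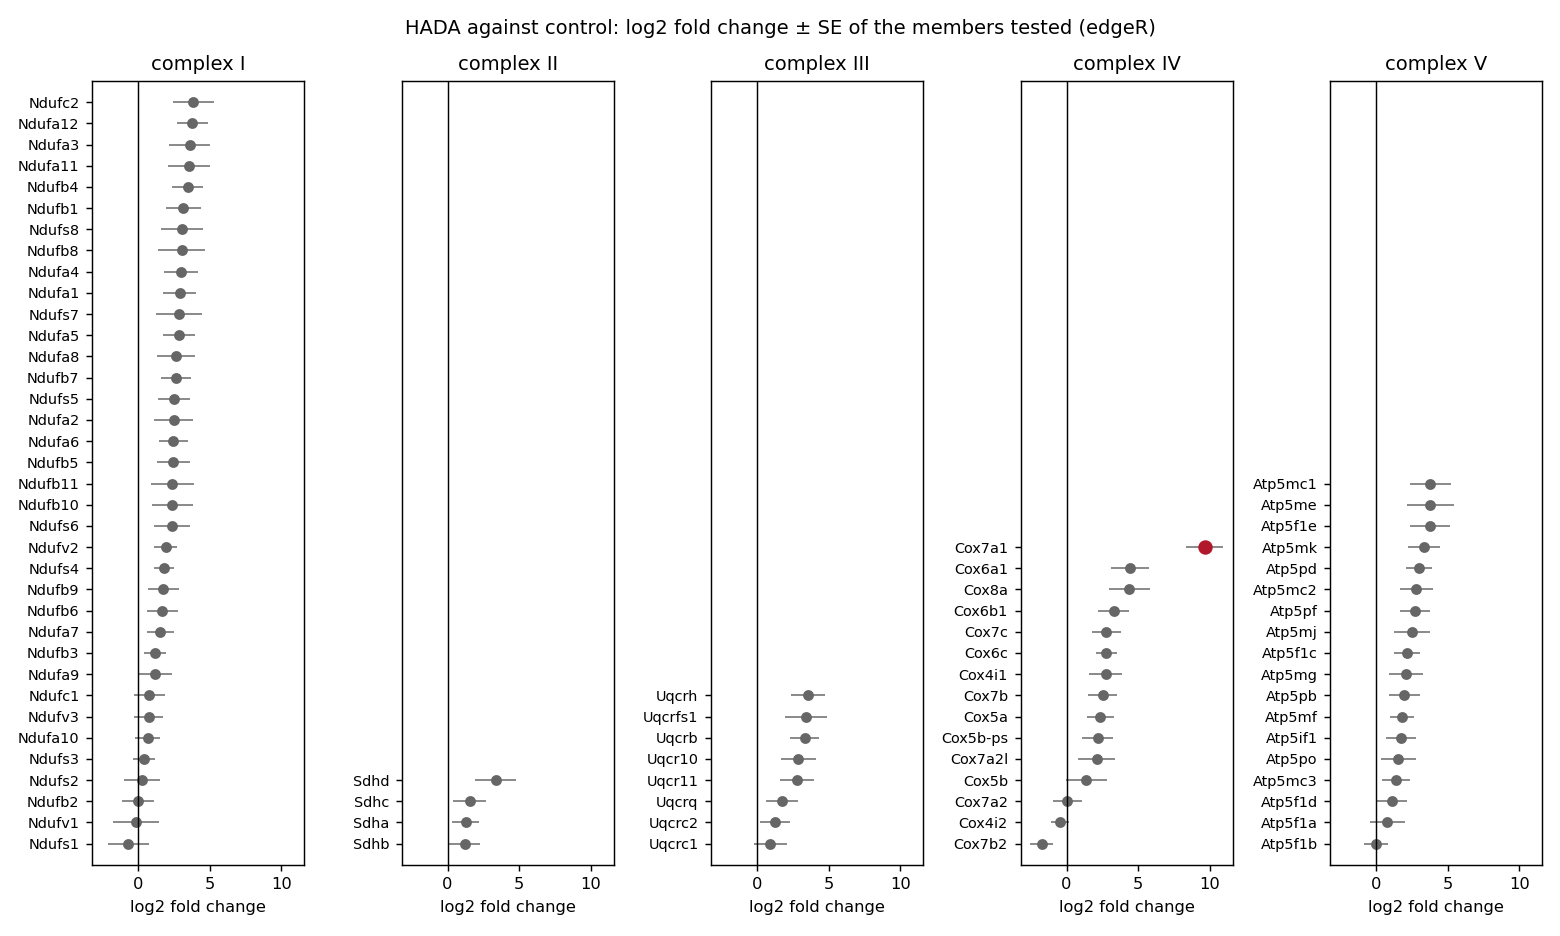
Log2 fold change of HADA against control Tregs, with its standard error (bars), for the 81 members tested in edgeR, by complex. Most points lie between 1 and 5, Cox7a1 (red) is the one called member at 9.64, and the points at or below 0 are Ndufs1, Ndufv1, Ndufb2, Cox4i2 and Cox7b2.

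Members with shorter transcripts tended to have higher log2 fold changes, a property the naming rule did not use. Across the 81 members the log2 fold change fell with the length of the canonical transcript (Spearman's rho -0.54, Pearson's r with log2 length -0.49), while across the 16446 protein-coding genes tested rho was -0.08. These are correlations over genes that share the same 8 libraries, given as a description. The median log2 fold change was 2.95 for the 24 members with transcripts under 700 bases, 2.52 for the 27 of 700 to 1500 bases and 1.40 for the 30 over 1500 bases. For protein-coding genes of the same lengths it was 1.57, 0.74 and 0.26. The median of the members was above that of all protein-coding genes in each class, and the classes were set after the values had been seen. Set against each control alone, rho was -0.40, -0.35, -0.39 and -0.46 for control replicates 1 to 4.

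**Figure D5:**
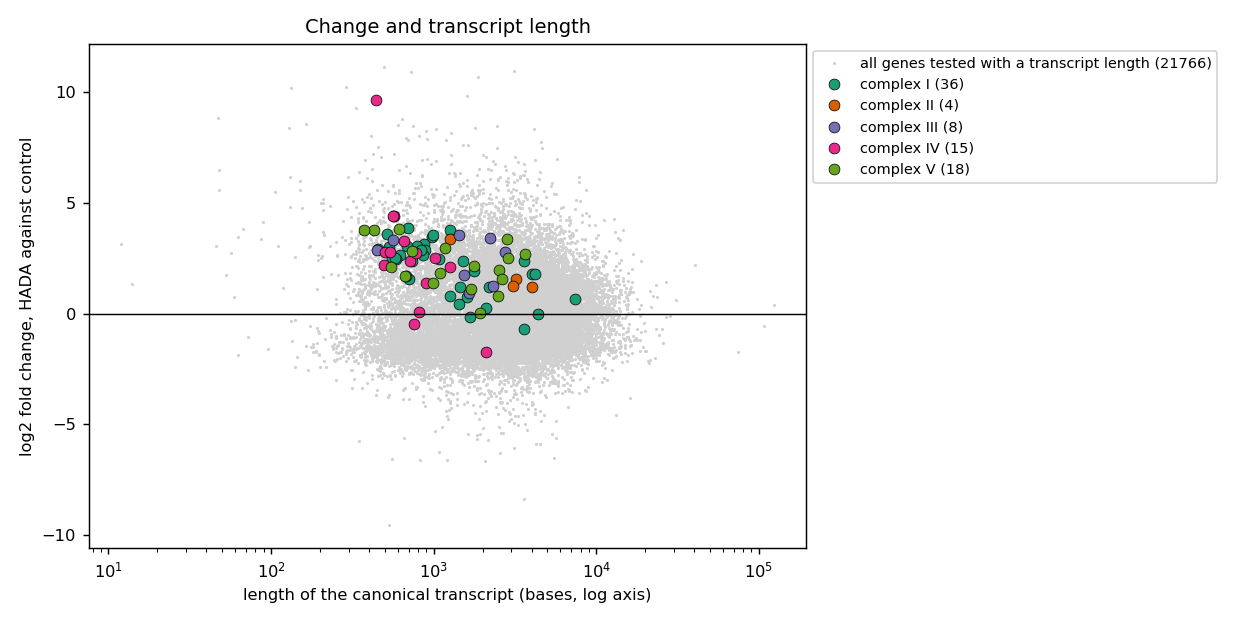
Log2 fold change of HADA against control Tregs by length of the canonical transcript (log axis) for all genes tested that have a length (grey) and for the members, coloured by complex. Short members tend to lie higher than long ones, with medians of 2.95 under 700 bases and 1.40 over 1500 bases, and most members lie above the bulk of the grey points.

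The partner genes of the respiratory chain are given for comparison. Of the 13 protein genes of the mitochondrial genome, all 13 had a log2 fold change above 1 (31.4% of all genes), with a median of 2.68. In all 13 the HADA libraries were above all controls (9.13% of all genes). The 3 called by edgeR (1.65% of all genes) were mt-Co2, mt-Nd3 and mt-Nd4l, which are named after their values were seen. Of these, mt-Nd3 stood at only 1.77 to 5.21 CPM in HADA and mt-Nd4l at 2.01 to 3.61 CPM. Both had 0 counts in control replicate 1, where the detection floor was 1.86 CPM. mt-Co1, a catalytic subunit of complex IV, stood at 7339 to 10481 CPM in HADA and at 2217, 202, 1458 and 1739 CPM in control replicates 1 to 4 (2.68 ± 0.72, edgeR adjusted p = 0.0732). mt-Nd1 of complex I had a log2 fold change of 2.63 ± 0.80 and mt-Atp6 of complex V of 3.96 ± 0.99 (edgeR adjusted p = 0.0958 and 0.0592). DESeq2 called all 13 higher (11.2% of all genes), and edgeR without control replicate 1 called 12 (15.5% of all genes). The log2 fold changes of the 13 genes ran from 2.01 to 5.26, within the range of the nuclear members (-1.72 to 9.64), of which 5 were below 0.

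Of 52 tested assembly factors, which build the complexes without staying in them, edgeR called 1 higher (1.65% of all genes) and the median was 1.40. DESeq2 called 14 higher and 1 lower, beside 11.2% and 19.3% of all genes. Without control replicate 1, edgeR called 17 higher and 1 lower, beside 15.5% and 19.7% of all genes. The gene called with all libraries in the fit was Ndufaf4, an assembly factor of complex I, at 44.3, 69.5, 14.2 and 64.0 CPM in HADA replicates 1 to 4 and at 4.97, 2.19, 1.82 and 1.10 CPM in control replicates 1 to 4 (4.31 ± 0.95, edgeR adjusted p = 0.0407). The next smallest p-values were those of Uqcc6 (3.62 ± 1.03, edgeR adjusted p = 0.0823) and Coa7 (3.61 ± 1.05, edgeR adjusted p = 0.0874), with groups that did not overlap.

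Of 11 carriers and subunits outside the naming rule, 0 were called by edgeR (2 were higher and 2 lower at an unadjusted p below 0.05, and DESeq2 called 2 higher and 2 lower) and the median was 0.27. Cycs, the electron carrier cytochrome c, had a log2 fold change of 2.29 ± 1.28, Ndufab1, the acyl carrier protein of complex I, of 2.33 ± 0.86, and Cyc1, the cytochrome c1 of complex III, of -0.64 ± 1.37. Of 13 regulators of mitochondrial biogenesis, 0 were called by edgeR (3 were higher at an unadjusted p below 0.05, and DESeq2 called 2 higher and 1 lower). Over all genes, 12% were higher and 14.7% lower at that unadjusted p, and DESeq2 called 11.2% and 19.3%. By its adjusted p, edgeR called 1.65% of all genes higher and 0.477% lower. Esrra stood at 11.4 to 25 CPM in HADA and at 6.84, 0.501, 0.629 and 0.579 CPM in control replicates 1 to 4 (3.13 ± 1.04, edgeR adjusted p = 0.113). Gabpa had a log2 fold change of 2.60 ± 0.92, Tfam of 1.65 ± 1.03, Nrf1 of 1.40 ± 0.79 and Yy1 of 0.83 ± 0.84. Ppargc1a, the coactivator PGC-1alpha, stood at 5.67 to 12.1 CPM in HADA and at 3.73, 43.2, 35.0 and 21.2 CPM in control replicates 1 to 4 (-1.70 ± 0.86, edgeR adjusted p = 0.215), so that, as in Cox7b2, control replicates 2 to 4 were above the HADA range. Its span is also long, and its control values had the order of the background density, highest in replicate 2 and lowest in replicate 1. The part of background reads in the Ppargc1a values was not tested.

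Ribosomal protein genes, which also encode subunits of large complexes, are given for comparison. The 82 cytosolic ribosomal protein genes tested had a median log2 fold change of 2.32, 81 of them above 0. Of these genes edgeR called 1 higher (Rps14), 57 without control replicate 1 and 9 with library totals alone, while DESeq2 called 53. In the same order, 1.65%, 15.5%, 0.937% and 11.2% of all genes were called higher. The 72 mitochondrial ribosomal protein genes tested had a lower median, 1.59. Of these, edgeR called 2 higher (Mrps11 and Mrps31), or 31 without control replicate 1, while DESeq2 called 21, with the same shares of all genes. The median of the nuclear-encoded respiratory subunits was 2.38, and the differences from these families were not tested. The 7 tested Treg and CD4 T cell markers had a median of 2.57, with 0 called by edgeR (1.65% of all genes called higher). Of these markers, 4 were higher at an unadjusted p below 0.05 (12% of all genes), and DESeq2 called 4 (11.2% of all genes). Their part in the values of the members was not tested.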

How the data were processed

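Mouse Tregs were profiled by low-input RNA-seq in 4 HADA and 4 control libraries, with groups and replicate numbers taken from the labels. Per the paper's methods and the labels, the authors used FastQC for read quality, Trimmomatic for trimming, STAR for alignment to GRCm39 and featureCounts for counting per gene. The deposited table holds the raw counts that resulted. Tool versions and the strand and multi-mapping settings are not given in the sources used here. The length column equals the gene span for all 89 members, so counts include introns, and reads on bases shared by overlapping spans appear to be lost. Where the strand is not known, reads of a gene and of an overlapping antisense gene cannot be told apart.

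Names came from GENCODE vM39, in which 98.7% of the 56980 identifiers were found. Genes were tested with edgeR 4.0.16 in R 4.3.3 (filterByExpr, TMM, quasi-likelihood test, no covariates) over 21991 genes, with calls at an absolute log2 fold change above 1 and an adjusted p (Benjamini-Hochberg) under 0.05, as in the methods of the study, which name DESeq2 1.42.0. That tool was run as an alternative. Counts were also simulated with the same spread for all genes and both groups. With the common spread estimated from these libraries, edgeR missed the changed genes and DESeq2 made many false calls. With a smaller spread both recovered most of them. In the data the spread differed between the groups, so the simulation does not decide which tool's count to trust. CPM were TMM-normalized with a prior count of 2 on the log2 scale. Isoform ratios took counts plus 0.5 and exact permutation tests over the libraries (scipy 1.17.1). The detection floor was set at 3 counts, which corresponds to 1.86 CPM in control replicate 1 and to at most 0.180 CPM in the others. Intervals and floors cover counting error only. Background density came from 1394 receptor genes and, like the density of Cox7b2, was scaled by library totals without TMM.

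Named with values were all isoforms of the listed pairs, the Sdh genes, per complex the member with the highest mean CPM and up to 3 members with the smallest p in each direction, members listed at 0, and the listed partner genes. Some further members and the called partner genes were named after their values were seen. The members and lists were chosen with earlier results of these data known. Alternatives were another scaling, filter, depth or tool, a replicate block, subtraction of background, removal of overlapped genes and leaving out each library.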

Additional observations from a re-analysis of the deposited data

Results flagged for a closer look

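In each group of 4 libraries, the log2 CPM of the named and tested members, the summed CPM of each complex and the tested isoform ratios were checked for a library standing apart by Dixon's test, in 82 groups. It marked 6, all of them log2 CPM values of single members, where chance alone would mark about 1 in 20, or 4.1.

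Control replicate 1 stood above the other controls for Ndufc2, at 5.32 against -0.99 to 0.05, and for Atp5mc1, at 5.22 against -0.74 to 0.12. Control replicate 4 stood above the others for Ndufb2, at 5.57 against 1.22 to 1.37, and control replicate 3 below the others for Atp5mc3, at 0.99 against 6.18 to 7.17. Among the HADA libraries, replicate 1 was low for Sdhd, at 5.08 against 6.47 to 6.72, and replicate 2 for Atp5pb, at 8.08 against 9.10 to 9.31.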

How the results depend on the processing

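Of the members, edgeR called 1 higher and 0 lower. The count called higher was 39 with DESeq2 (11.2% of all genes tested there), 37 at an unadjusted p (12%) and 4 without overlapped genes (1.51%). It was 3 with library totals alone (0.937%), 2 with at least 10 counts in every library (1.1%) and 0 with background subtracted (1.06%). When each library was left out in turn the count was 1 to 35, the 35 without control replicate 1 (15.5% of all genes). With DESeq2 without control replicate 1, an alternative chosen after seeing the data, it was 55 (26.1% of all genes). The count called lower was 0 to 1 over the left-out libraries. It was 1 with DESeq2, without control replicate 1, and with both together (19.3%, 19.7% and 24.9% of all genes), the gene being Cox7b2. The cause was not tested.

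Libraries with the same number did not deviate together (r = -0.21, 0.25, -0.08 and -0.003 for numbers 1 to 4), so the numbers were not taken to pair the libraries. With the replicate number as a block, edgeR called 1 member higher and 0 lower, Cox7a1 kept its call (adjusted p = 0.0170), and the isoform differences of -4.94 and 3.73 had an exact sign-flip p of 0.125, the smallest that 4 pairs allow. Under the block the log2 fold change turned to 2.29 for Ndufv1 and to 1.18 for Ndufb2.

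No reversal was of a called value. Ndufs1 spanned -3.83 to 0.48 over the left-out libraries, Ndufv1 -1.37 to 2.76 and Ndufb2 -0.41 to 2.59, and with no filter Ndufv1 was at 0.038 and Ndufb2 at 0.19. With all libraries thinned to the depth of the smallest, Sdhc moved from 1.55 to -0.020, Sdhb from 1.19 to -0.041 and Cox7a2 from 0.06 to -1.69. Cox7a2 was also negative with DESeq2 size factors in edgeR and with DESeq2 (-0.19 each), with library totals alone (-0.62), without overlapped genes (-0.43), with at least 10 counts (-0.84) and with background subtracted (-1.04), and spanned -0.32 to 2.16 over the left-out libraries.

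For the isoform ratios, the difference over the left-out libraries was -6.08 to -3.82 for Cox7b2 over Cox7b, 2.79 to 4.59 for Atp5mc1 over Atp5mc3 (3.06 when thinned), 0.59 to 3.44 for Atp5mc2 over Atp5mc3 and 1.96 to 4.26 for Cox7a2l over Cox7a2. The last reached an exact permutation p of 0.029 without control replicate 1 and the one before it without control replicate 3. The summed level of complex IV was 2261 CPM higher in HADA, and 1549 with library totals alone, which also lowered the difference from 379 to 217 CPM for complex II and from 2597 to 1695 CPM for complex V. Of the recomputed counts, ratios and levels, 113 kept their direction and side of the threshold or moved by less than the spread, 12 counts or levels moved, and 11 ratios lost and 2 gained an unadjusted p under 0.05. Of the recomputed single members, 456 stayed as they were, 46 gained a call (20 with DESeq2, 19 without control replicate 1), 1 lost it (Cox7a1) and 24 reversed.

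The depth of control replicate 1 limits what it can show to levels above 1.86 CPM.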
